A study of Mus musculus with 6 samples.

Results

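The genes described here are 8 mouse genes of cholesterol synthesis and its control: the enzyme genes Hmgcs1, Idi1, Fdft1, Sqle, Lss and Cyp51, and the regulator genes Srebf2 and Insig1. Every probe set (a group of short array probes for one transcript) that the platform annotation tied to 1 gene symbol, and that symbol one of these 8, was taken. This gave 21 probe sets of the 45101 on the array, of which 34958 had 1 gene symbol: 5 for Hmgcs1, 4 for Fdft1, 3 each for Lss and Cyp51, 2 each for Idi1 and Srebf2, and 1 each for Sqle and Insig1. None of the 8 encodes a lipoprotein receptor, so uptake of cholesterol is covered only by the wider lists at the end.

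RNA was measured on 6 Affymetrix Mouse Genome 430 2.0 arrays, 1 per sample. Dendritic cells with Ly6G (Ly6G+ DC) gave 3 samples and those without it (Ly6G- DC) gave 3. All cells were grown from bone marrow of C57BL/6 mice with 10 ng/ml GM-CSF, a growth factor that yields dendritic cells in culture, and on day 6 cells positive for CD11c and MHC II were sorted by Ly6G, a surface protein typical of neutrophils. Per the labels' growth protocol, both populations were sorted from shared cultures, but no label ties a numbered pair to 1 culture. The labels give no genetic change or other treatment; the age of the mice is not given in the sources used here. Whether samples 1 to 3 of a population are separate cultures or animals is not stated in the labels, so every p-value rests on a spread between samples that may be technical. A sorted population is bulk RNA, so fewer cells carrying a transcript and less of it per cell cannot be told apart.

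Cholesterol is built from acetyl-CoA through mevalonate, isoprenoids, squalene and lanosterol. When sterols in the endoplasmic reticulum run low, the membrane-bound transcription factor SREBP2, encoded by Srebf2, is carried to the Golgi, cut, and released to switch on the enzyme genes through sterol regulatory elements in their promoters, often beside a site for the factor NF-Y. INSIG1 holds the SREBP complex in the endoplasmic reticulum when sterols are plentiful, and its own gene is an SREBP target. Dendritic cells and macrophages also gain cholesterol by taking up lipoproteins and dying cells, and lose it through ABC transporters.

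Promoters are shown because the enzyme genes and Insig1 are known SREBP targets, so their upstream sequence is what the genes could share beyond function. RefSeq promoters (build GRCm38.p6, 250 bases before to 50 after the gene start) were found for 6 of the 8 genes; the windows of Lss (chr10:76531355-76531654, + strand) and Cyp51 (chr5:4104648-4104947, - strand) are not printed, and those of Fdft1 and Sqle are not shown here. Both strands were searched for the core of the sterol regulatory element, TCACNCCAC, and for the NF-Y box, CCAAT. On the opposite strand the box reads ATTGG. The windows of Hmgcs1 (the enzyme with the most probe sets), Idi1, Insig1 and Srebf2 are printed 5′ to 3′ in the direction of the gene, with matches to either motif in capitals.
Hmgcs1 promoter, chr13:119690101-119690400, + strand: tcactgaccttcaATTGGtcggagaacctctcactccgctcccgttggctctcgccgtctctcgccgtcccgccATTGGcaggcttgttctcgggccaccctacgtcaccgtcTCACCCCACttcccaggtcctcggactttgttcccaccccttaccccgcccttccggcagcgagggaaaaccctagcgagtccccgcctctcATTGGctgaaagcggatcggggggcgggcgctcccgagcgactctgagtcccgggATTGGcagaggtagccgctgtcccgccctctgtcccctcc
Idi1 promoter, chr13:8885356-8885655, + strand: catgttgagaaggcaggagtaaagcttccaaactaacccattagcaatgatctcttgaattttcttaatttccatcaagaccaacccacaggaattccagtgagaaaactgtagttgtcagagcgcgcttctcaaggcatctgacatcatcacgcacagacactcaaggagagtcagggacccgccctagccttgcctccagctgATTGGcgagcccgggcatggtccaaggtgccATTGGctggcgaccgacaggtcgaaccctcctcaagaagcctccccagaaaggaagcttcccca
Insig1 promoter, chr5:28071162-28071461, + strand: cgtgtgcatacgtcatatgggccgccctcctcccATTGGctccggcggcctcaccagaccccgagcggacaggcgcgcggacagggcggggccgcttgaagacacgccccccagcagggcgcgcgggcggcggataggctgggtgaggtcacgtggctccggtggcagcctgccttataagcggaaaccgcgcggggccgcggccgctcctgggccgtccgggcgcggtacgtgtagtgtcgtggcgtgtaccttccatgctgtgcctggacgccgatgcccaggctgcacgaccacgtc
Srebf2 promoter, chr15:82147019-82147318, + strand: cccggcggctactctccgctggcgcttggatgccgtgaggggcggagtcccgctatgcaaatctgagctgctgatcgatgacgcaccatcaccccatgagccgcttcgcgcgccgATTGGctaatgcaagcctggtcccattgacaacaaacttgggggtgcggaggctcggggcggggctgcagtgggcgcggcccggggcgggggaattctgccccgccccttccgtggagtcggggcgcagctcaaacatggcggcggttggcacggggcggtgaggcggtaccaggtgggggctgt
The sterol core matched 1 of the 6 windows, that of Hmgcs1, as TCACCCCAC beginning 137 bases before the gene start; it was present in 1.24% of the 32851 promoters of the table. The NF-Y box was present in 6 of 6 windows, 4 times in Hmgcs1, 2 times in Idi1 and 1 time each in Lss, Cyp51, Insig1 and Srebf2, against 37.4% of all promoters. The 2 motifs did not overlap in any of the 6. A match describes the letters only, and a window without one says nothing about binding.

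Array quality differed, and unevenly between the sorted populations. The 3′/5′ signal ratio of the control transcript Actb, which is near 1 where labelled copies reach the 5′ end, was 1.19, 3.98 and 1.49 in Ly6G+ DC 1 to 3, against 1.17, 6.85 and 6.55 in Ly6G- DC 1 to 3. For Gapdh it was 0.839, 1.76 and 0.884 on the Ly6G+ DC arrays, against 0.813, 3.11 and 3.50 on the Ly6G- DC arrays. Ly6G+ DC 2, Ly6G- DC 2 and Ly6G- DC 3 had the high ratios, and the same 3 arrays had the high signals for the 18 spiked-in hybridization control probe sets (geometric means of 6688 to 12842, against 1529 to 2039 on the others). The highest signal of any probe set was 27320, 79712 and 32052 in Ly6G+ DC 1 to 3, against 26674, 134237 and 138679 in Ly6G- DC 1 to 3. The Actb 3′ signal was 21408, 54348 and 24562, against 21821, 75167 and 80663. Whether an upper limit of signal lowered some ratios was not tested. The groups overlapped: the mean log2 ratio was 0.94 ± 0.93 for Actb and 0.13 ± 0.60 for Gapdh on the Ly6G+ DC arrays, and 1.90 ± 1.46 and 1.05 ± 1.17 on the Ly6G- DC arrays (SD, n = 3 each; exact two-sided permutation p = 0.4 for either transcript, where 0.1 is the smallest that 3 against 3 allows). The sample titles also carry 2 array names, Mouse430_2 for numbers 2 and 3 and Mouse430_2_2 for number 1 in both groups; the labels do not say what the names mean. The 5′ control for 18S ribosomal RNA had signals of 716 and 5392 in Ly6G+ DC 2 and 3 and of 688 and 657 in Ly6G- DC 2 and 3, all under the name Mouse430_2, against 102 in Ly6G+ DC 1 and 85.0 in Ly6G- DC 1.

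**Figure D1:**
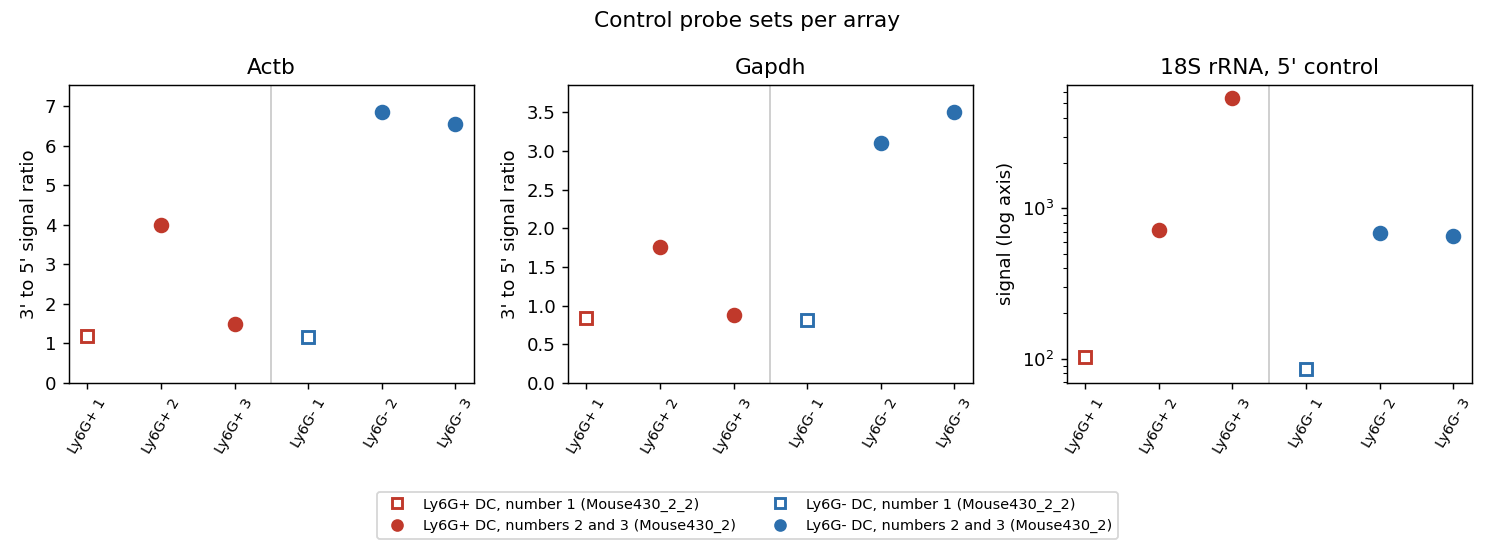
The 3′/5′ signal ratio of the control transcripts Actb and Gapdh (linear axes from 0) and signal of the 5′ control of 18S ribosomal RNA (log axis) on each of the 6 arrays. Points are single arrays, open squares number 1 and filled circles numbers 2 and 3; Ly6G+ DC 2, Ly6G- DC 2 and Ly6G- DC 3 have Actb ratios of 3.98 to 6.85 and the other arrays 1.17 to 1.49, whereas the 18S signal separates number 1 from numbers 2 and 3.

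The labelled cell types were set against their markers. Of 14 named neutrophil markers, 14 were higher in every Ly6G+ DC array than in every Ly6G- DC array. Cxcr2 and Cd177 among them lay below the 40th percentile on every Ly6G- DC array. They passed the filter given below only through the Ly6G+ DC arrays, so their separation was favoured by the filter and counts for little. Groups did not overlap, in either direction, for 11.7% of all 28254 tested probe sets. None of the 15 neutrophil probe sets had a limma adjusted p under 0.05 in the test described below (smallest 0.165). The summed signal of the 14 markers was 88175 to 116680 on the Ly6G+ DC arrays against 11409 to 29234 on the Ly6G- DC arrays. S100a8, a calcium-binding protein abundant in neutrophils, had 22222, 24449 and 30299 against 2434, 4628 and 925. The 11 dendritic cell markers summed to 30534 to 52400 on the Ly6G+ DC arrays and 56321 to 107368 on the Ly6G- DC arrays. On the brightest probe set of each gene, all 11 had a lower mean log2 signal in Ly6G+ DC. The groups overlapped for Fscn1, H2-DMb2, Itgax, Ciita and Cd86. Fscn1, the brightest, had 6445, 23505 and 11909 against 11371, 34840 and 53210, and was lowest on the arrays numbered 1. Itgax, which encodes the CD11c used in the sort, had 7884, 5292 and 2728 against 9630, 5910 and 5610. Sums of the monocyte list (12136 to 15419 against 4122 to 11325), the B lymphocyte list (278 to 325 against 361 to 494) and the T and NK lymphocyte list (600.3 to 1235 against 1586 to 2119) did not overlap between the groups either. Those of the macrophage list (32434 to 44448 against 29608 to 56291), the mast cell, basophil and eosinophil list (1314 to 3199 against 517 to 1479) and the erythroid list (175 to 315 against 157 to 234) did. Of that mast cell, basophil and eosinophil list, Prg2 and Epx did not overlap. Prg2 had 1468, 604 and 2106 on the Ly6G+ DC arrays against 398, 143 and 114 on the Ly6G- DC arrays. Epx had 448, 301 and 307 against 200, 111 and 12.1. Mcpt8, Cpa3 and Kit overlapped, and Kit had a lower mean log2 signal in Ly6G+ DC. The part of these cell types in any value below was not tested.

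Between Ly6G+ DC and Ly6G- DC, none of the 20 tested probe sets of the 8 cholesterol genes passed the adjusted threshold. Differences were computed on log2(signal + 16) as Ly6G+ DC minus Ly6G- DC with limma, a linear model fitted over all probe sets, and p-values were Benjamini-Hochberg adjusted over the 28254 that lay above the 40th percentile of their array on at least 3 of 6 arrays. Of the 21 probe sets, 20 passed that filter and 0 had a limma adjusted p under 0.05, against 0% of all 28254. At an unadjusted p under 0.05 there was 1 of 20, against 5.62% of all. None of the 20 had groups that did not overlap, against 11.7% of all. Taking the brightest probe set of each gene, the median difference over the 8 genes was 0.05, with 4 above 0 and a range of -0.21 (Lss) to 0.39 (Sqle), beside a median of -0.06 over all probe sets, of which 12711 were above 0. After scaling all arrays to one median, 8 of 8 were above 0 (0.10 to 0.72, median 0.37), and 0 of the 20 passed the adjusted threshold. Over all 28254 probe sets the median then was 0.23, and only 8989 were below 0.

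**Figure D2:**
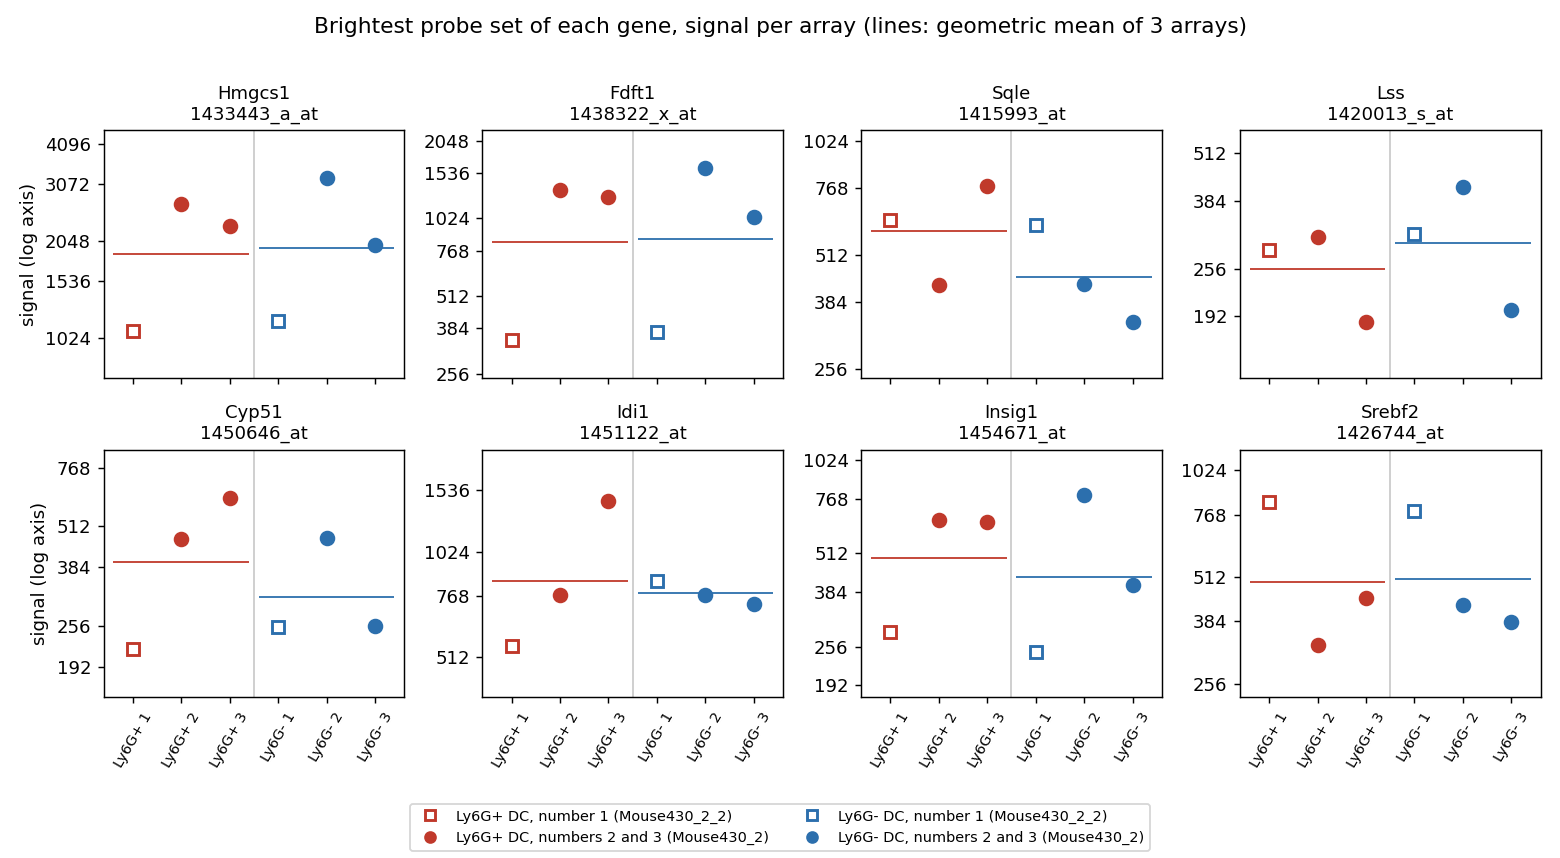
Signal of the brightest probe set of each of the 8 genes on each array (log axes). Points are single arrays, open squares number 1 and filled circles numbers 2 and 3, and lines are geometric means of 3 arrays; the groups overlap in every panel, and in Hmgcs1, Fdft1, Cyp51 and Insig1 number 1 of each group is its lowest array.

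Hmgcs1 encodes the cytosolic HMG-CoA synthase, an early enzyme of the mevalonate pathway. Its brightest probe set, 1433443_a_at, had signals of 1082, 2672 and 2279 in Ly6G+ DC 1 to 3, against 1160, 3223 and 1992 in Ly6G- DC 1 to 3. Number 1 was the lowest array in both populations and the groups overlapped throughout; the difference was -0.06 ± 0.45 (SE; 95% interval -1.06 to 0.94; limma adjusted p = 0.983). Probe set 1433444_at had 650, 1927 and 2496 on the Ly6G+ DC arrays against 685, 1438 and 684 on the Ly6G- DC arrays, and 1433445_x_at had 986, 2323 and 2709 against 1149, 1664 and 1182. In both, Ly6G+ DC 2 and 3 were the highest arrays and Ly6G+ DC 1 the lowest, with differences of 0.73 ± 0.50 and 0.48 ± 0.40 (limma adjusted p = 0.844 and 0.859).

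The probe set with the lowest unadjusted p of the 20 was Hmgcs1 1433446_at. It had signals of 448, 589 and 670 on the Ly6G+ DC arrays, against 564, 156 and 156 on the Ly6G- DC arrays. Only Ly6G- DC 2 and 3 were low. Their Actb 3′/5′ ratios were 6.85 and 6.55, against 3.98 in Ly6G+ DC 2 and 1.17 to 1.49 on the other arrays. The part of array quality in these values was not tested. Ly6G- DC 1 lay within the range of Ly6G+ DC. The difference was 1.16 ± 0.47 (SE; 95% interval 0.12 to 2.21), with an unadjusted p of 0.0323 and a limma adjusted p of 0.836. Among the 3 arrays with low hybridization controls it was -0.04, and among the 3 with high ones 1.82; between the arrays numbered 1 it was -0.32. With 1 array left out it was 0.87 to 1.75, the highest without Ly6G- DC 1 (limma adjusted p = 0.0845). The dim probe set 1441536_at had 38.7, 94.1 and 40.2 on the Ly6G+ DC arrays against 93.9, 64.3 and 143 on the Ly6G- DC arrays, a difference of -0.68 ± 0.49 (limma adjusted p = 0.849). The 5 probe sets of Hmgcs1 thus ranged from -0.68 to 1.16 and did not give 1 direction.

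Idi1 encodes isopentenyl-diphosphate isomerase, which interconverts the building blocks of isoprenoids. Probe set 1451122_at had 552, 772 and 1426 on the Ly6G+ DC arrays and 846, 773 and 729 on the Ly6G- DC arrays. The 3 Ly6G- DC arrays lay close together inside the wider range of Ly6G+ DC, and the difference was 0.12 ± 0.36 (SE; 95% interval -0.69 to 0.92; limma adjusted p = 0.958). Probe set 1423804_a_at had 200, 898 and 1062 on the Ly6G+ DC arrays and 366, 807 and 746 on the Ly6G- DC arrays. Here number 1 was lowest in both groups, and the difference was -0.06 ± 0.58 (limma adjusted p = 0.987).

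Fdft1 encodes squalene synthase, the first enzyme committed to sterols. Its brightest probe set, 1438322_x_at, had 347, 1323 and 1240 on the Ly6G+ DC arrays against 371, 1602 and 1034 on the Ly6G- DC arrays. Both arrays numbered 1 had less than any other, and the difference between populations was -0.04 ± 0.60 (SE; 95% interval -1.37 to 1.30; limma adjusted p = 0.992). Probe set 1448130_at had 456, 377 and 571 on the Ly6G+ DC arrays against 579, 338 and 457 on the Ly6G- DC arrays. There the arrays numbered 1 were not low, and the difference was 0.04 ± 0.32 (95% interval -0.67 to 0.75; limma adjusted p = 0.982). The remaining Fdft1 probe sets, 1438918_at and 1438919_x_at, were dim (27.9 to 104 and 17.5 to 174) and differed by 0.37 ± 0.55 and -0.65 ± 0.70 (limma adjusted p = 0.911 and 0.882). The suffix _x marks probes that may match other sequences, so the signal of such a probe set can include another transcript.

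Sqle encodes squalene epoxidase, a rate-limiting oxygen-dependent step. It had 631, 426 and 779 on the Ly6G+ DC arrays and 615, 430 and 340 on the Ly6G- DC arrays. Numbers 1 and 2 were nearly the same in both populations and only number 3 was apart, and the difference was 0.39 ± 0.34 (SE; 95% interval -0.37 to 1.16; limma adjusted p = 0.861). Lss encodes lanosterol synthase, which closes the sterol rings. Its brightest probe set, 1420013_s_at, had 287, 310 and 186 on the Ly6G+ DC arrays and 315, 419 and 200 on the Ly6G- DC arrays. Number 3 was the lowest in each population, with a difference of -0.21 ± 0.37 (95% interval -1.02 to 0.60; limma adjusted p = 0.923). The dimmer Lss probe sets 1420014_at (5.64 to 105) and 1426913_at (15.7 to 105) differed by -0.83 ± 0.81 and 0.48 ± 0.58 (limma adjusted p = 0.869 and 0.891).

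Cyp51 encodes lanosterol demethylase, a cytochrome P450 that starts the conversion of lanosterol to cholesterol. Probe set 1450646_at had 218, 467 and 620 on the Ly6G+ DC arrays against 254, 471 and 255 on the Ly6G- DC arrays. The difference was 0.34 ± 0.43 (SE; 95% interval -0.61 to 1.28; limma adjusted p = 0.897). Probe set 1422533_at had 88.2, 152 and 397 on the Ly6G+ DC arrays against 105, 126 and 182 on the Ly6G- DC arrays. On both, Ly6G+ DC 3 was the highest array and Ly6G+ DC 1 the lowest, and the second differed by 0.36 ± 0.50 (limma adjusted p = 0.905). The third, 1422534_at, was above the 40th percentile on 2 arrays and was not tested; it had 4.90, 73.1 and 29.6 on the Ly6G+ DC arrays against 34.9, 90.9 and 15.3 on the Ly6G- DC arrays.

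Of the regulators, Srebf2 probe set 1426744_at had 835, 328 and 446 on the Ly6G+ DC arrays against 784, 428 and 383 on the Ly6G- DC arrays. Number 1 was the highest array in both populations, the reverse of Hmgcs1 1433443_a_at and Fdft1 1438322_x_at, and the difference between populations was -0.02 ± 0.41 (SE; 95% interval -0.93 to 0.89; limma adjusted p = 0.994). Srebf2 1452174_at had 339, 318 and 313 on the Ly6G+ DC arrays against 448, 354 and 283 on the Ly6G- DC arrays. These are the closest values among the 20 probe sets, with a difference of -0.13 ± 0.30 (95% interval -0.80 to 0.54; limma adjusted p = 0.943). Insig1 had 287, 654 and 648 on the Ly6G+ DC arrays against 246, 788 and 405 on the Ly6G- DC arrays. Number 1 was again lowest in both, and the difference was 0.20 ± 0.46 (95% interval -0.83 to 1.23; limma adjusted p = 0.944). Over the brightest probe sets of the 8 genes the 95% intervals reached as low as -1.37 and as high as 1.30, both for Fdft1. Differences within an interval were not excluded with 6 arrays, so the values do not show that the populations were alike.

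**Figure D3:**
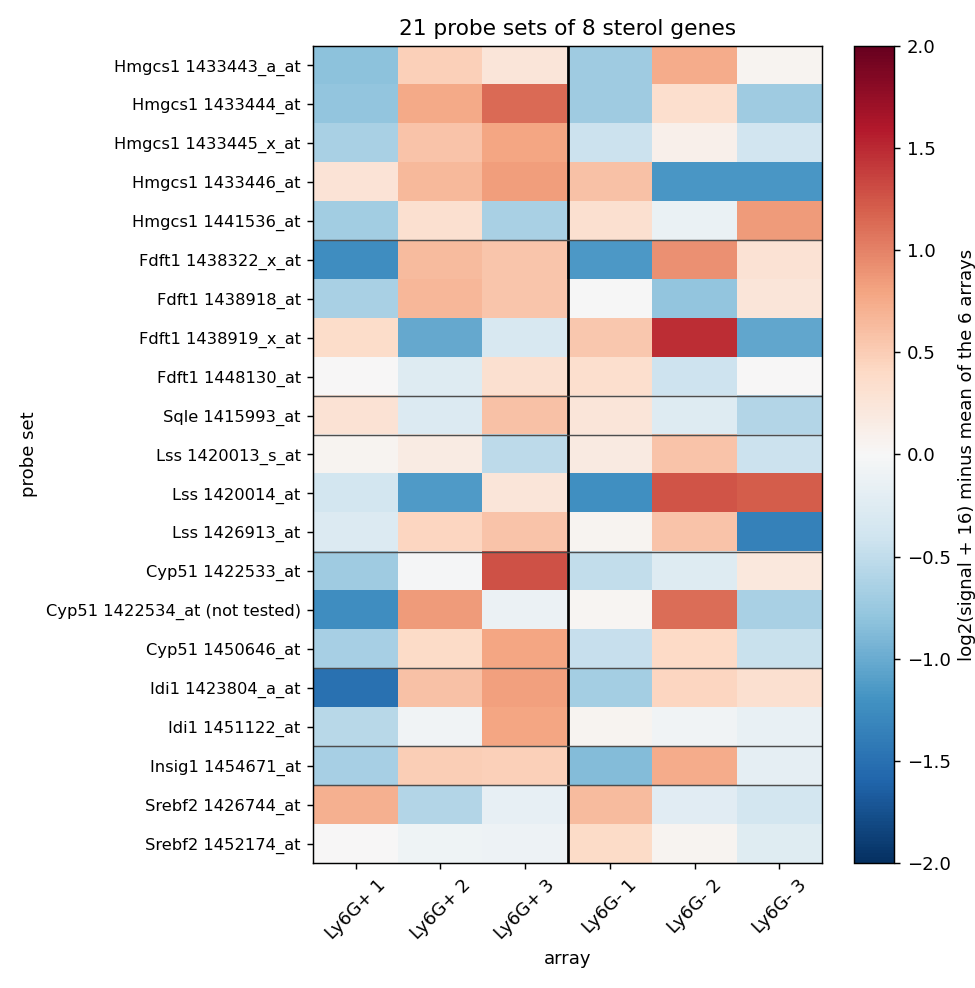
Log2(signal + 16) of all 21 probe sets minus each one's mean over the 6 arrays, one row per probe set and one column per array, Ly6G+ DC left of the line. Probe sets of 1 gene often differ: Hmgcs1 1433443_a_at is low on both arrays numbered 1, whereas 1433446_at is low only on Ly6G- DC 2 and 3, and Srebf2 1426744_at is high on both arrays numbered 1.

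Averaged over the brightest probe set of each of the 8 genes, centred on its own mean, the log2 level was -0.36, 0.15 and 0.34 in Ly6G+ DC 1 to 3 and -0.26, 0.35 and -0.23 in Ly6G- DC 1 to 3. Both number 1 arrays were low, but so was Ly6G- DC 3, and the population means of 0.04 ± 0.36 and -0.04 ± 0.35 (SD, n = 3 each) lay well within the spread. Among 4484 brightly detected genes outside the lists, those whose pattern over the 6 arrays was most like this average were Hnrnpa0 (Pearson r = 0.992), Trip4 (0.984), 2010315B03Rik (0.982), Rreb1 (0.968) and Ptch1 (0.964). These correlations over 6 arrays are a description; the arrays share scaling and the array names above.

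Because number 1 stood apart in several members, the array names in the titles were compared as well, with the sorted population in the same fit; this comparison was chosen after the members' values were seen and was run over all probe sets. In it, Mouse430_2 is numbers 2 and 3 of both populations and Mouse430_2_2 is number 1 of both. Of the 20 tested probe sets, 4 were higher and 1 lower in Mouse430_2 at a limma adjusted p under 0.05, which is 25% of them, against 6.67% of all 28254 (3.85% higher and 2.82% lower). The arrays of the 2 names did not overlap for 8 of the 20, against 29% of all. Since this comparison was chosen from the members' own values, the counts and the members' p-values below describe them. They carry no test of the list or of a single member.

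Fdft1 1438322_x_at had the largest of these differences among the called probe sets, 1.79 ± 0.26 (SE; limma adjusted p = 0.00246), with 1.84 within Ly6G+ DC and 1.75 within Ly6G- DC. Idi1 1423804_a_at was higher in Mouse430_2 by 1.63 ± 0.30 (limma adjusted p = 0.00770; 2.20 within Ly6G+ DC and 1.05 within Ly6G- DC). Hmgcs1 1433443_a_at was higher by 1.15 ± 0.25 (limma adjusted p = 0.0201; 1.18 and 1.12) and Insig1 by 1.14 ± 0.30 (limma adjusted p = 0.0408; 1.14 and 1.15). Srebf2 1426744_at was lower, with a difference of -1.01 ± 0.26 (limma adjusted p = 0.0387; -1.09 and -0.93).

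Other probe sets of the same genes did not pass the adjusted threshold, some with differences of the same sign and some of the opposite one. Fdft1 1448130_at differed between the names by -0.26 ± 0.29 (limma adjusted p = 0.679), Idi1 1451122_at by 0.37 ± 0.32 (0.561) and Srebf2 1452174_at by -0.29 ± 0.28 (0.616). Hmgcs1 1433444_at and 1433445_x_at differed by 1.13 ± 0.34 and 0.81 ± 0.28 (limma adjusted p = 0.0715 and 0.113), but 1433446_at by -0.64 ± 0.41 (0.418). Sqle differed by -0.40 ± 0.30 (limma adjusted p = 0.508) and Lss 1420013_s_at by -0.18 ± 0.36 (0.836), while Cyp51 1450646_at and 1422533_at differed by 0.84 ± 0.33 and 0.90 ± 0.44 (0.165 and 0.259). The median over the 8 genes was 0.60, with 5 above 0, beside -0.01 over all probe sets, of which 49.5% were above 0. Of the 20 probe sets, 0 had a limma adjusted p under 0.05 for a different array name difference in the 2 populations (1 at an unadjusted p under 0.05; 0 and 596 of all 28254).

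These 5 calls were fragile. There were 0 without the intensity trend in limma's variance model, 1 (Fdft1 1438322_x_at) after scaling all arrays to one median, and 1 (Idi1 1423804_a_at) with the side of the hybridization controls as a block. When Ly6G+ DC 1 or Ly6G+ DC 2 was left out, 2 probe sets were called. There was 1 call when Ly6G- DC 1 was left out, 2 when Ly6G- DC 2 was, and 5 when either array numbered 3 was. Only 1 array per population carries the name Mouse430_2_2, and the 18S signal splits the arrays the same way, so array name, number and 18S signal cannot be told apart.

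**Figure D4:**
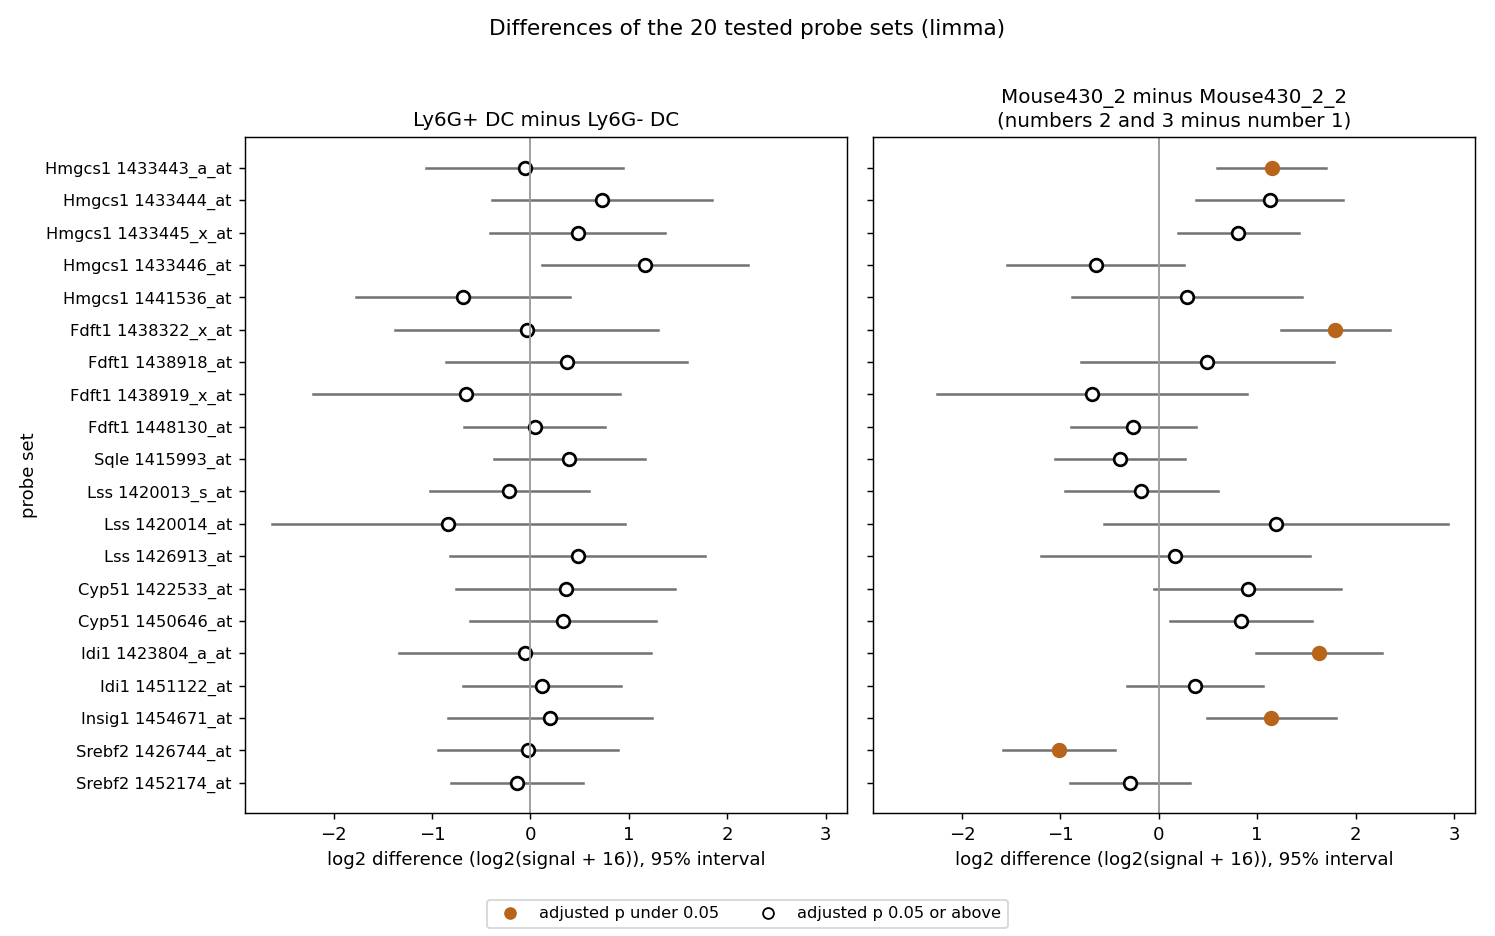
Log2 differences of the 20 tested probe sets with 95% intervals from limma, for Ly6G+ DC minus Ly6G- DC (left) and for Mouse430_2 minus Mouse430_2_2 with the population in the fit (right). Filled points have an adjusted p under 0.05: 0 on the left, where all but the interval of Hmgcs1 1433446_at cross 0, and 5 on the right, 4 above 0 and Srebf2 1426744_at below it.

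The rest of the pathway was read from wider gene lists. Of 16 other sterol synthesis enzymes, 13 were named by the annotation used and tested, and 0 of their 22 probe sets had a limma adjusted p under 0.05 between Ly6G+ DC and Ly6G- DC; 9 of 13 genes were above 0, with a median of 0.08. Msmo1, which acts after Cyp51, had 522, 862 and 1496 on the Ly6G+ DC arrays and 573, 704 and 471 on the Ly6G- DC arrays (difference 0.60 ± 0.39, limma adjusted p = 0.844). Nsdhl, which acts with Msmo1 in removing methyl groups from the sterol, differed by 0.06 ± 0.36 and Ebp, the sterol isomerase, by 0.47 ± 0.39 (limma adjusted p = 0.981 and 0.859). Their groups overlapped, as they did for the 8 genes. Between the array names, 1 of the 22 was higher, Dhcr7, which makes cholesterol from 7-dehydrocholesterol, by 1.34 ± 0.35 (limma adjusted p = 0.0391).

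Of 5 other SREBP regulators, 0 of 10 probe sets had a limma adjusted p under 0.05 between the populations (median of 5 genes -0.02). Srebf1, which encodes the SREBP1 forms that mainly drive fatty acid synthesis, had 681, 982 and 795 on the Ly6G+ DC arrays against 672, 1003 and 830 on the Ly6G- DC arrays, a difference of -0.02 ± 0.30 (limma adjusted p = 0.990). Mbtps1 and Mbtps2, the Golgi proteases that release SREBP, differed by -0.20 ± 0.27 and 0.34 ± 0.31 (limma adjusted p = 0.903 and 0.862). Array by array, Srebf1 was nearly equal in the 2 populations at each number. Insig2 1417980_a_at, a probe set of the INSIG1 relative singled out after its values were seen, had 218, 362 and 407 on the Ly6G+ DC arrays against 92.1, 206 and 154 on the Ly6G- DC arrays. Its groups did not overlap, and the difference was 1.07 ± 0.39 (SE; 95% interval 0.20 to 1.93; unadjusted p = 0.0203; limma adjusted p = 0.836). The brightest Insig2 probe set, 1417982_at, differed by 0.32 ± 0.31 (limma adjusted p = 0.869). Over all probe sets, 11.7% had no overlap and 5.62% had an unadjusted p under 0.05. In the lists below, Stard4 1455011_at (0.73) and Acly 1446315_at (-1.54) also met both.

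Uptake and lysosomal release of cholesterol was covered by 8 of 10 listed genes. None of their 18 probe sets differed between the populations at a limma adjusted p under 0.05, with a median of 0.10 over the 8. Npc2, which carries cholesterol out of lysosomes, had 13298, 15481 and 9824 on the Ly6G+ DC arrays against 13598, 18315 and 20845 on the Ly6G- DC arrays (-0.45 ± 0.37, limma adjusted p = 0.858). Lipa, the lysosomal acid lipase, differed by 0.13 ± 0.39 and Lrp1, an endocytic lipoprotein receptor, by 0.64 ± 0.43 (limma adjusted p = 0.955 and 0.844). Between the array names, Scarb1, the HDL receptor, was higher in Mouse430_2 on probe sets 1455820_x_at and 1437378_x_at (1.63 ± 0.26 and 1.27 ± 0.27, limma adjusted p = 0.00395 and 0.0179), but its brightest, 1416050_a_at, differed by -0.34 ± 0.33 (0.617). Lrp1 was lower there by -1.06 ± 0.27 (limma adjusted p = 0.0354).

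In the list of cholesterol efflux and storage, 5 of 7 genes were tested and 0 of 8 probe sets passed between the populations; the median of the 5 genes was 0.38. Abca1, the transporter that loads cholesterol onto apolipoproteins, had 5381, 4979 and 4461 on the Ly6G+ DC arrays against 4057, 4057 and 3302 on the Ly6G- DC arrays on its brightest probe set. Every Ly6G+ DC array was higher, yet the difference of 0.38 ± 0.29 had a limma adjusted p of 0.852. On the other Abca1 probe sets, 1421839_at and 1450392_at, the groups overlapped. These differed by -0.01 ± 0.67 and 0.34 ± 0.77 (limma adjusted p = 0.999 and 0.942). Abcg1, a second exporter, differed by 0.19 ± 0.37 and Apoe, the lipoprotein component, by 0.89 ± 0.63 (limma adjusted p = 0.932 and 0.848). Apoe and Abca1 1421839_at were lower in Mouse430_2, by -1.80 ± 0.32 and -1.99 ± 0.32 (limma adjusted p = 0.00686 and 0.00469).

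Fatty acid synthesis, the companion SREBP1 pathway, had 9 of 9 genes tested and 0 of 20 probe sets called between the populations (median -0.01). Scd2, a fatty acid desaturase, had 5998, 10286 and 10827 on the Ly6G+ DC arrays against 5114, 8751 and 3479 on the Ly6G- DC arrays (0.70 ± 0.42, limma adjusted p = 0.840). Acly, which makes the acetyl-CoA that feeds both pathways, differed by 0.25 ± 0.37 and Scd1, the related desaturase, by -0.65 ± 0.46 (limma adjusted p = 0.911 and 0.848). Between the array names the probe sets of Scd2 also disagreed: 1415822_at differed by 0.46 ± 0.35 (limma adjusted p = 0.499) and 1415823_at by -2.42 ± 0.46 (0.00929). Those of Acly did too: its brightest, 1439459_x_at, differed by 0.74 ± 0.25 (limma adjusted p = 0.0949) and 1425326_at by -1.60 ± 0.34 (0.0174). Scd1 1415964_at was higher in Mouse430_2 by 1.19 ± 0.26 (limma adjusted p = 0.0191).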

How the data were processed

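Per the submitters' processing notes, arrays were processed with Affymetrix Expression Console, MAS5 and GCOS; per the labels, 200 ng of RNA was converted to biotin-labelled cRNA with an oligo-dT primer. The authors deposited linear signal intensities per probe set; on every array their mean after trimming 2% at either end was 250.0. Gene names came from the platform annotation, which can be old. Signals were tested as log2(signal + 16) with limma 3.58.1 in R 4.3.3 (lmFit, eBayes with an intensity trend), without 64 control probe sets and after the filter given above, and the fit was checked on simulated data. The pseudocount shrinks the changes of dim probe sets. The number of arrays limits the precision.

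Members and gene lists were chosen with earlier results of these data known. Genes named outside the 8 and the marker lists were the 3 brightest of each pathway list and any past the threshold. Srebf1, Abca1 and the 5 most alike were also named. Other probe sets of these genes, those of Insig2 and Stard4, and the second probe sets shown for the array names were picked after their values were seen. So were the genes named from the mast cell, basophil and eosinophil list. Alternatives were other pseudocounts, filters, scalings, variance models and blocks, and leaving out each array.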

Additional observations from a re-analysis of the deposited data

How the results depend on the processing

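Between Ly6G+ DC and Ly6G- DC, 0 of the 20 tested probe sets of the 8 genes had a limma adjusted p under 0.05 in any alternative run, and of their values under alternatives 313 kept their direction and 30 changed it. Over all probe sets, the replicate block, which takes equal numbers as pairs, gave 19 calls, the array name as a block 21, and leaving out 1 array 0 to 24 (24 without Ly6G- DC 1), none of them in the 8 genes. The numbers were not taken as a pairing because no label ties a number to a culture. Same-numbered samples of the populations correlated in their deviations from the group means by 0.52, 0.26 and -0.04. In all, 3 of 6 samples correlated best with their own number. These values cannot decide whether equal numbers share a culture, since array quality also differed within a number. The median over the 8 genes was 0.37 with arrays scaled to one median, 0.21 when blocked on the hybridization control side, -0.0081 after quantile normalization and -0.0014 to 0.39 with 1 array left out (0.39 without Ly6G+ DC 1, 0.33 without Ly6G- DC 2). Scaling all arrays to one median moved the median of all probe sets to 0.23, against -0.06, and turned the sign of Lss 1420013_s_at (0.10), Idi1 1423804_a_at (0.27), Srebf2 1426744_at (0.30) and 1452174_at (0.19), Hmgcs1 1433443_a_at (0.27) and Fdft1 1438322_x_at (0.29). Blocking on the hybridization control side turned the sign of Idi1 1423804_a_at (0.27), Hmgcs1 1433443_a_at (0.25), Fdft1 1438322_x_at (0.42) and Fdft1 1448130_at (-0.12), the last being -0.0017 after quantile normalization. Leaving out 1 array gave -0.48 to 0.021 for Lss 1420013_s_at, -0.075 to 0.89 for Lss 1426913_at, -0.19 to 0.81 for Cyp51 1422533_at, -0.48 to 0.68 for Idi1 1423804_a_at, -0.25 to 0.42 for Idi1 1451122_at, -0.39 to 0.29 for Srebf2 1426744_at, -0.29 to 0.029 for Srebf2 1452174_at, -0.43 to 0.33 for Hmgcs1 1433443_a_at, -0.62 to 0.58 for Fdft1 1438322_x_at, -0.15 to 0.22 for Fdft1 1448130_at and -0.18 to 0.63 for Insig1. Between arrays of the same hybridization control side, with no test, Hmgcs1 1433446_at and 1441536_at were near 0 on one side (-0.04 each), and Lss 1420014_at was 1.17 on the low side and -2.37 on the high side.

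The array name difference depended more on the processing. All calls and those among the 20 were 1885 and 5; they were 910 and 1 with a common median, 845 and 4 with the brightest probe set per gene, 0 and 0 with no intensity trend (limma; 5205 of all at an unadjusted p under 0.05, with a smallest adjusted p of 0.0888), 293 and 1 when blocked on the hybridization control side, and 52 to 3898 and 1 to 5 when 1 array was left out (52 came from leaving out Ly6G- DC 1 and 3898 from leaving out Ly6G+ DC 3). The median over the 8 genes was 1.07 under the hybridization control block and 0.16 to 1.02 with 1 array left out. Signs turned for Sqle (0.26), Hmgcs1 1441536_at (-0.24) and Fdft1 1448130_at (0.23) with that block. Leaving out 1 array gave -0.40 to 0.033 for Lss 1420013_s_at, -0.078 to 2.46 for Lss 1420014_at, -0.44 to 0.78 for Lss 1426913_at, -1.75 to 0.47 for Hmgcs1 1433446_at, -0.27 to 1.26 for Fdft1 1438918_at, -0.54 to 0.026 for Fdft1 1448130_at and -0.17 to 0.91 for Idi1 1451122_at. The causes were not tested.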
